A study of Mus musculus with 45 samples.

Results

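Gut hormone genes were measured in 45 RNA-seq libraries of tuft cells sorted from the mouse small intestine, and 10 of them were chosen by name: Nts, Cck, Gcg, Gip, Ghrl, Sct, Pyy, Sst, Tac1 and Tph1. They are 10 of the 47729 genes in the deposited tables and 10 of the 14020 genes that had more than 5 reads in at least 6 libraries and were tested. Each library came from 1 male C57BL/6J mouse that arrived at an age of 5 weeks and was housed at thermoneutrality. After 1 week on chow the mice were given either the low-fat reference diet (RFD, 10% fat) or the high fat diet (HFD, 60% fat). Tuft cells are rare chemosensory cells of the gut epithelium. The study names the sorted cells EpCAM+CD45+ Siglec-F+, but also states that CD45 served to exclude M cells that carry it. Their RNA was amplified with Smart-seq2, which does not keep the strand of a transcript. Of the mice fed for 9 weeks, 11 were on RFD and 11 on HFD, and of those fed for 22 weeks 11 were on RFD and 12 on HFD. The labels give 9 weeks for every library, and the second set of libraries was taken as the 22-week mice of the study, so that feeding time and library set cannot be told apart.

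Total reads on genes ranged from 189340 to 4193097 on RFD and from 409023 to 3600000 on HFD at 9 weeks, and from 829184 to 3476758 on RFD and from 661598 to 4690213 on HFD at 22 weeks. The libraries of RFD mouse 40 and HFD mouse 50 at 9 weeks were the only ones under 500000. Epcam, Ptprc (CD45) and Siglecf, the genes of the proteins stained for the sort, had reads in all 45 libraries, and so did 16 of the 20 tuft cell markers listed. The mean log2(CPM + 1) of those 20 markers ranged from 4.13 to 10.01, and the lowest value belonged to HFD mouse 80 at 9 weeks. CPM are counts scaled to a library of fixed size after TMM normalization, which was done in each set of libraries on its own. CPM of different sets are therefore not on exactly the same scale. The median of the marker mean was 9.14 on RFD and 7.69 on HFD at 9 weeks, and 9.52 and 9.02 at 22 weeks.

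Gut hormones are made by enteroendocrine cells, single cells scattered through the epithelium that sense the gut contents and release peptides or serotonin into the blood and onto nerve endings. Cck, Gcg, Gip, Ghrl, Sct, Pyy, Sst, Nts and Tac1 encode precursors that are cut into peptides inside secretory granules, while Tph1 encodes the enzyme that starts serotonin synthesis outside the brain. Which peptides a cell makes differs along the gut and along the villus, and several may be made by the same cell. Tuft and enteroendocrine cells both arise from the intestinal stem cells. In bulk libraries such as these, fewer cells of a type and less RNA per cell cannot be told apart.

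Sct, which encodes secretin, the hormone that makes the pancreas release bicarbonate, stood apart from the other 9 genes. It had reads in 45 of 45 libraries and a median of 678.6 TPM, a unit that is scaled to transcript length and allows genes to be compared. Cck followed with a median of 3.81 TPM and reads in 28 libraries, Tac1 with 0.55 TPM and 25 libraries, and Tph1 with 0.24 TPM and 23 libraries. The remaining 6 genes had a median of 0 TPM, with reads in 22 libraries for Gip, 19 for Nts, 18 for Gcg, 16 for Ghrl, 12 for Sst and 11 for Pyy. Below Sct the order of the medians carries little, since each of these 9 genes ranged from 0 TPM to values between 21.25 TPM (Tac1) and 5020 TPM (Gip). Sct had the highest TPM of the 10 genes in 38 libraries and Gip in the other 7. Sct made up between 14.6% and 100% of their summed TPM, with a median of 80.4%.

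The upstream sequences of Nts, Cck and Sct are shown because Sct was the only one of the 10 genes with reads in every library and the other two had the smallest p for diet at 22 weeks. They are RefSeq sequences on GRCm38.p6, read on the minus strand, on which all 3 genes lie, and end just before the transcribed part. For Nts, the bases inside an annotated exon were left out, which leaves 182 bases at chr10:102490487-102490668. The windows of Cck (chr9:121495695-121495944) and Sct (chr7:141279134-141279383) have 250 bases each. Capitals mark matches on either strand to the NEUROD1-type E-box CAGATG, the TATA box TATAAA, the CRE core TGACGT or the AP-1 site TGACTCA.
Nts: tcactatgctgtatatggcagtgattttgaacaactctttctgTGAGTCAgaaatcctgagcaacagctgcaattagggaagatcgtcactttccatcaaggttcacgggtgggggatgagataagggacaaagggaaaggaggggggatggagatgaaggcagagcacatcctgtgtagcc
Cck: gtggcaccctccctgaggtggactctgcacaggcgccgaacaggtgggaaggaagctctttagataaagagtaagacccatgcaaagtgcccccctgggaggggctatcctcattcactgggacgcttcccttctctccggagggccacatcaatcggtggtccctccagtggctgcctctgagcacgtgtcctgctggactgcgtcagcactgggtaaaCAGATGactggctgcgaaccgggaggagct
Sct: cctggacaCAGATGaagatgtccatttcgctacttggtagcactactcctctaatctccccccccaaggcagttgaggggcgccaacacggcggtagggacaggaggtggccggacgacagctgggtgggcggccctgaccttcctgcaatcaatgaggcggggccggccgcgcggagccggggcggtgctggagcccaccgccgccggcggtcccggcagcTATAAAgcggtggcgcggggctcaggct
The Nts window holds 1 AP-1 match, which starts 139 bases from the end of the window. The Cck window holds 1 E-box match 30 bases from its end. Sct has a TATA box match 28 bases from the end and an E-box match 242 bases from it. Of 32851 upstream windows of 250 bases, 14.4% held CAGATG, 12.4% TATAAA, 6.47% TGACGT and 4.46% TGACTCA, so that each match is common and is given as a description only.

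**Figure D1:**
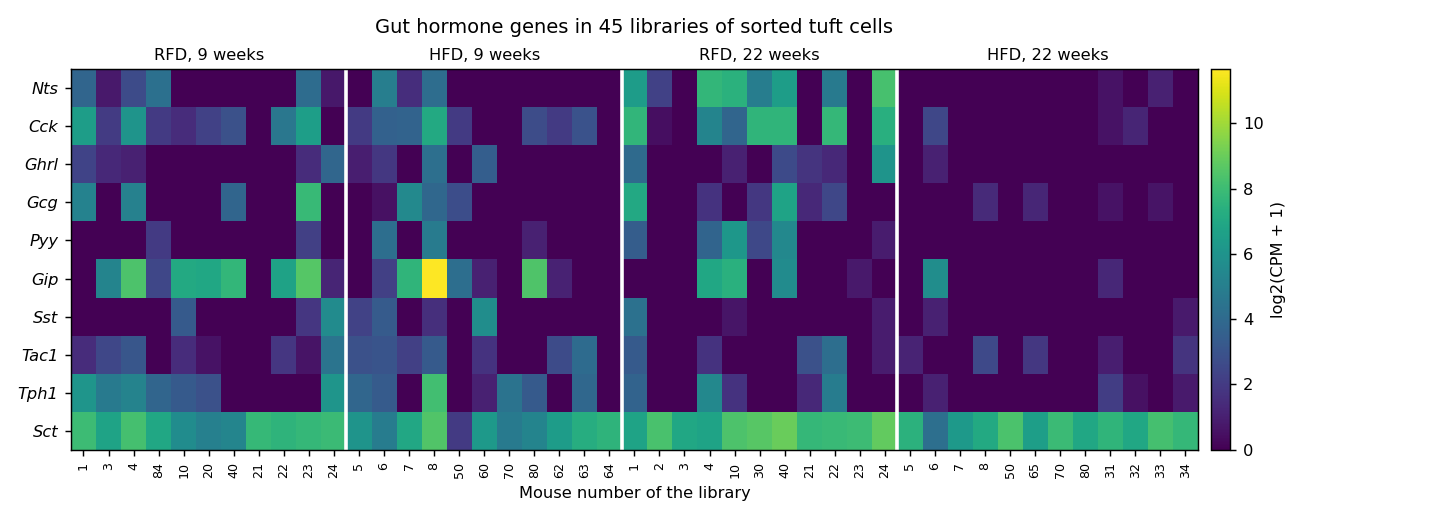
Heat map of the 10 hormone genes (rows) in the 45 libraries (columns, labelled by mouse number and grouped by diet and weeks of feeding), with colour giving log2(CPM + 1). The Sct row is filled in nearly every library, whereas the rows of the other 9 genes are patchy in 3 groups and almost empty in the 12 HFD libraries at 22 weeks.

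After 22 weeks of feeding, 5 of the 10 genes were lower on HFD than on RFD: Nts, Cck, Gcg, Ghrl and Pyy, and none was higher. Over all genes tested, 0.792% were called at 22 weeks, 0.357% as lower and 0.435% as higher on HFD. Here and below, called means a Benjamini-Hochberg adjusted p under 0.1 in the quasi-likelihood F test of edgeR. An unadjusted p under 0.05 was found for 8 of the 10 genes, where 10.3% of all genes had one, and 8 had a log2 fold change under -3, where 0.207% of all genes did. All 10 genes had a negative log2 fold change, with a median of -4.96 against -0.03 over all 14020 genes. The median stays at -4.96 with Pyy, which had no read on HFD, at its lower bound. The 10 genes were chosen with earlier results of these data known. The shares of all genes here and below are therefore a description and no test of the 10 as a set. For genes with so few reads on HFD the fitted fold change depends on the small count that edgeR adds, and the ratio of summed reads is therefore given beside it. Each SE was derived as the absolute log2 fold change divided by the square root of the F value of its test. It is approximate and was not estimated by the fit. For Pyy, without reads on HFD at 22 weeks, it has little meaning there and in the interaction.

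Nts encodes neurotensin, a peptide of the distal small intestine that is released by fat and slows gut motility. On RFD at 22 weeks it ranged from 0 to 306.6 CPM with a median of 29.3 CPM (n = 11), and on HFD from 0 to 1.08 CPM with a median of 0 CPM (n = 12). Of the RFD mice, 8 lay above every HFD mouse, and the other 3 had no read, so that the groups overlap between 0 and 1.08 CPM. The fitted log2 fold change was -8.69 with an SE of 1.22 (edgeR adjusted p = 0.000788). The 1410 reads on RFD against 3 on HFD give a ratio of 545 after division by the total reads, with a 95% counting interval from 186 to 2650, which covers counting error only. No RFD library held more than 26.4% of the RFD reads. Without HFD mouse 33, which had 2 of the 3 reads, the log2 fold change was -9.49.

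Cck encodes cholecystokinin, the satiety peptide of proximal I cells that also contracts the gallbladder. It ranged from 0 to 215.9 CPM on RFD at 22 weeks (median 37.8 CPM) and from 0 to 4.52 CPM on HFD (median 0 CPM). As with Nts, most RFD mice, here 7, lay above every HFD mouse, and the remaining 4 had at most 1 read. Cck had a log2 fold change of -7.73 with an SE of 1.27 (edgeR adjusted p = 0.0062), from 1969 reads on RFD and 8 on HFD, a ratio of 285 (counting interval 145 to 662). HFD mouse 6 had 4 of these 8 reads, and without it the log2 fold change was -8.55.

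Gcg and Pyy are the L cell genes, which encode proglucagon, the precursor of GLP-1, and peptide YY, a peptide that lowers food intake. Gcg had a median of 1.58 CPM and a highest value of 129.4 CPM on RFD at 22 weeks, against a median of 0 and a highest value of 1.64 CPM on HFD. Only 5 RFD mice lay above every HFD mouse, and RFD mouse 1 held 78.6% of the RFD reads. The 660 reads on RFD against 5 on HFD give a ratio of 153 (counting interval 65.3 to 473). For Gcg the log2 fold change was -6.20 with an SE of 1.32 (edgeR adjusted p = 0.0279), and it was -4.98 without RFD mouse 1 and -5.51 without RFD mouse 40, past the threshold in both cases. Pyy had from 0 to 71.3 CPM on RFD (median 0.824 CPM) and no read in any of the 12 HFD libraries, where 3 reads over the whole group would have been 0.131 CPM. With 238 reads on RFD it was at least 92-fold higher there (edgeR adjusted p = 0.0485), and 6 of the 11 RFD mice had reads. Without RFD mouse 10, the source of 53.8% of these reads, the fitted log2 fold change moved from -7.56 to -6.68.

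Ghrl encodes ghrelin, the hunger peptide made mainly in the stomach and to a lesser extent in the duodenum. At 22 weeks it ranged from 0 to 63.5 CPM on RFD (median 1.12 CPM), and 11 of the 12 HFD libraries had no read. Its 152 reads on RFD against 1 on HFD give a ratio of 176, with a counting interval from 31.2 to 7010, and the log2 fold change was -6.09 with an SE of 1.201 (edgeR adjusted p = 0.0124). RFD mouse 24 held 50.7% of the RFD reads, and the value was -4.50 without this mouse and -6.93 without HFD mouse 6. Exons of 2 annotated genes on the opposite strand share 172 of the 1079 exonic bases of Ghrl, whose reads cannot be told apart from theirs without strand, and no such overlap was found for the other 9 genes.

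The other peptides and the serotonin enzyme did not pass the threshold at 22 weeks. Tph1 had 128 reads on RFD and 10 on HFD, a ratio of 14.8 (counting interval 7.81 to 31.7), with highest values of 42.4 and 3.40 CPM and a median of 0 CPM in both groups, and its log2 fold change of -3.84 had an SE of 1.12 (edgeR adjusted p = 0.141). It passed without RFD mouse 1, RFD mouse 3 or HFD mouse 31, with adjusted p of 0.0777, 0.0840 and 0.0477. Over all 23 libraries left out in turn it ranged from -5.04 to -3.04, the latter without RFD mouse 4 (adjusted p = 0.306). Sst, which encodes somatostatin, the inhibitor of most other gut hormones, had 79 reads on RFD, 97.5% of them in mouse 1, and 2 on HFD, a ratio of 45.8 with an interval from 12.3 to 385 (log2 fold change -3.60, SE 1.13, adjusted p = 0.198), and without this RFD mouse the value was -0.17. Gip, the incretin gene of proximal K cells, had 465 reads on RFD in 4 mice and 48 on HFD, of which 93.8% came from mouse 6 (log2 fold change -3.09, SE 1.501, adjusted p = 0.490). The Gip reads give a ratio of 11.2 (8.34 to 15.5). Without this HFD mouse the fitted value was -7.21, with an adjusted p of 0.0720, and without RFD mouse 10, which held 65.2% of the RFD reads, it was -2.10, with an adjusted p of 0.747. Tac1, the substance P gene of serotonin cells and nerves, had 70 and 19 reads, a ratio of 4.27 (2.54 to 7.51), and a value of -1.73 with an SE of 1.02 (adjusted p = 0.582).

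The values of Sct overlapped broadly between the diets. They ranged from 108.2 to 508.7 CPM on RFD at 22 weeks (median 254.1 CPM) and from 18.1 to 322.3 CPM on HFD (median 154.9 CPM). Of the HFD mice, 10 lay below the RFD median and 2 above it. Sct had a log2 fold change of -0.72 with an SE of 0.32 at 22 weeks (edgeR adjusted p = 0.451). At 9 weeks, where the medians were 191.2 CPM for RFD and 76.0 CPM for HFD, it was -0.62 with an SE of 0.50 (edgeR adjusted p = 0.534).

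**Figure D2:**
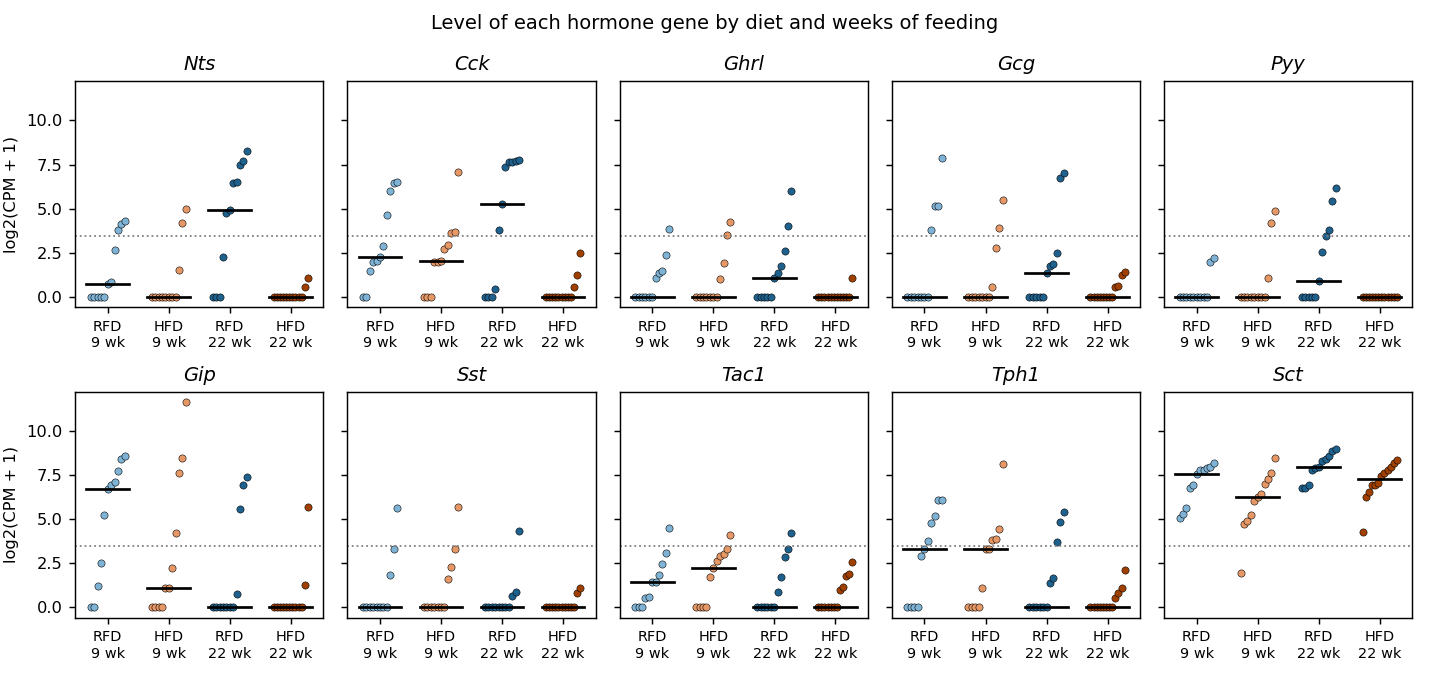
Each point is 1 library, the bar is the median of the group, and the vertical axis is log2(CPM + 1) for each of the 10 genes, with a dotted line at 10 CPM. For Nts and Cck, 7 RFD libraries at 22 weeks lie above the line and no HFD library does, while all Sct points but 1 lie above it.

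The 22-week difference in Nts and Cck was present in each series of mouse numbers, given as a check because repeated experiments were pooled and the labels do not say which mouse belongs to which. For mice numbered 1 to 8, for multiples of 10 and for a series of other numbers, which leave out HFD mouse 65, the difference in mean log2(CPM + 1) between HFD and RFD was -4.10, -6.28 and -2.85 for Nts and -2.73, -6.36 and -3.33 for Cck. Of the 10 genes, 8 were lower on HFD in all 3 series, with Gip and Tac1 as the exceptions. The share of all genes for which this held was not counted. Some of the differences were close to none, such as -0.22 for Pyy and -0.01 for Sst in the series of other numbers. With the series as a term in the fit, where 1.32% of all genes were called, the same 5 hormone genes were called. So were they with the tuft marker mean as a covariate, where 1.24% of all genes were. All 5 calls were kept when each of the 23 libraries was left out in turn, with adjusted p of at most 0.0841.

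The calls depended on the test for 4 of the 5 genes. Nts passed under all 10 alternative settings (adjusted p from 2.48e-07 to 0.0396) and Cck under 9 of 10, but Gcg passed under 6 of 9 (0.0185 to 0.587), Ghrl under 6 of 9 (0.00124 to 0.375) and Pyy under 5 of 9 (0.00913 to 0.214). DESeq2, which called 2.5% of all genes, gave Nts and Cck only, and no adjusted p for 6 of the 10 genes, Gcg, Ghrl and Pyy among them.

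At 9 weeks, none of the 10 genes was called by edgeR, where 3.32% of all genes were, 2.0% as higher and 1.33% as lower on HFD. None had an unadjusted p under 0.05, where 18.0% of all genes had one, and none had a log2 fold change under -3, where 0.193% did. DESeq2, limma on TPM and the rank test written after the study's SAM-seq method called none of them either. DESeq2 gave no adjusted p for 5 of them (Nts, Ghrl, Pyy, Sst and Tac1). Of all genes DESeq2 called 10.9% and the rank test 18.2%. For limma the shares were 0.0642% and 0.0357% at pseudocounts of 1 and 0.1, so that its lack of calls says little. The median log2 fold change of the 10 genes was 0.24, against -0.05 over all genes, and 6 of the 10 were positive. All 10 genes had reads on both diets. Gip reached 383.3 CPM on RFD (median 102.5 CPM) and 3221 CPM on HFD (median 1.154 CPM). Cck reached 91.5 CPM on RFD (median 3.72 CPM) and 132.2 CPM on HFD (median 3.0 CPM). Nts stayed at or below 18.6 CPM on RFD and 30.4 CPM on HFD, with medians of 0.668 and 0 CPM.

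Single mice carried much of the 9-week signal. HFD mouse 8 held 93.6% of the Gip reads of its group, 83.5% of those of Tph1, 80.4% of Cck, 63.9% of Pyy and 63.4% of Ghrl. Without it, the log2 fold change of Gip moved from 1.52 (SE 1.51) to -1.11 and that of Tph1 from 0.62 (SE 1.151) to -1.57. On RFD, mouse 23 held 85.3% of the Gcg reads, 47.4% of those of Nts and 46.0% of those of Gip. The largest 9-week values were those of Pyy, 2.56 (SE 1.28, adjusted p = 0.293), and Gcg, -2.44 (SE 1.45, adjusted p = 0.391). Without HFD mouse 8 the Pyy value was 1.43. Gcg was -0.516 without RFD mouse 23 and -3.97 without HFD mouse 7, and Cck moved from -0.70 to -2.59 without HFD mouse 8 and to -0.283 without RFD mouse 23. The summed level of the 7 Paneth cell markers, which ranged from 56.5 to 108600 CPM on RFD and from 107 to 594300 CPM on HFD, differed widely between these libraries, and its part in the hormone values was not tested.

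**Figure D3:**
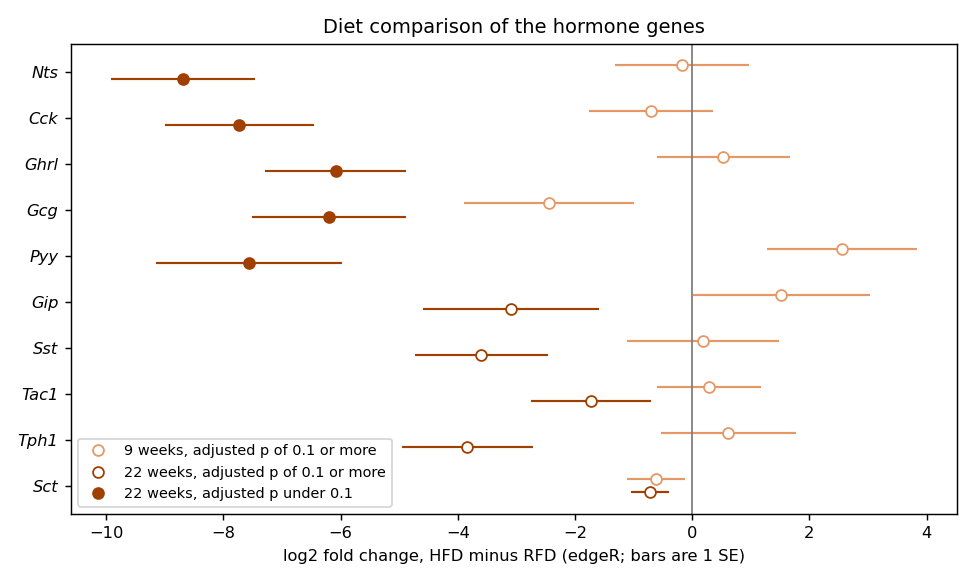
Log2 fold change of HFD over RFD from edgeR for each hormone gene, with bars of 1 SE, at 9 weeks (light) and 22 weeks (dark). The SE was derived from the F value and is approximate, and the bar of Pyy at 22 weeks has little meaning. Filled points, those of Nts, Cck, Ghrl, Gcg and Pyy at 22 weeks, have an adjusted p under 0.1, and Sct has nearly the same value at both times.

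Whether the diet difference itself differed between the sets was tested with an interaction term. No gene of the 10 passed at an adjusted p under 0.1 in edgeR, and of all 14020 genes 0.0% passed. The smallest adjusted p over all genes was 0.172, shared by Nts and Pyy, with interaction values of -8.45 (SE 1.76) and -9.98 (SE 2.07) on the log2 scale. An unadjusted p under 0.05 was found for 7 of the 10 genes, where 3.22% of all genes had one. Without the filter on low counts Nts, Ghrl and Pyy passed, where 0.181% of all genes did. DESeq2 called none of the 10, and 0.0% of all genes. The effect of diet common to both sets was called for Nts (log2 fold change -3.55, SE 1.16, adjusted p = 0.0530), Cck (-3.37, SE 1.06, adjusted p = 0.0451) and Gcg (-3.75, SE 1.03, adjusted p = 0.0228) in the edgeR fit with the set as a term, where 5.68% of all genes were called lower and 6.03% higher. Nts was not called in this fit without the filter on low counts (adjusted p = 0.115), where 4.36% of all genes were called. DESeq2 called Sct in addition to the 3 (-0.64, adjusted p = 0.0898). Of the 14020 genes, DESeq2 called 2804 for this common effect, against 1642 in the edgeR fit.

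Libraries above 10 CPM were also counted, a limit that is itself a level and depends on depth. RFD mouse 40 at 9 weeks passed it for Gcg with 2 reads (12.7 CPM). RFD mouse 1 at 22 weeks fell short of it for Pyy with 40 reads (9.97 CPM). At 22 weeks, 8 of the 10 genes were above 10 CPM in at least 1 RFD library and in no HFD library, which held for 6.18% of all genes. At 9 weeks none of the 10 did, against 12.0% of all genes. Nts and Cck were each above 10 CPM in 7 of 11 RFD libraries and in 0 of 12 HFD libraries (p = 0.00135, two-sided Fisher's exact test). A pattern of at least 7 RFD libraries and no HFD library was found in 0.0428% of all genes, and in 0.0357% at 9 weeks. After adjustment over all 14020 genes none of the 10 passed (adjusted p = 0.993 for both), and 0.0143% of all genes did. At 9 weeks Nts was above the limit in 3 RFD and 2 HFD libraries, Cck in 4 and 3, Gcg in 4 and 2, Gip in 7 and 4 and Tph1 in 5 and 4.

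Several hormone genes were often above 10 CPM in the same library. Apart from Sct, 20 of the 45 libraries had at least 2 of the other 9 genes above 10 CPM, 7 had 1 and 18 had none. Of these 18, 11 were HFD libraries at 22 weeks, and the remaining HFD library of that set, mouse 6, had Gip only. On RFD at 22 weeks the libraries fell apart into 7 with both Nts and Cck above the limit and 4 with neither. The summed level of the 9 genes was between 236.3 and 534.8 CPM in the 7 and between 0 and 11.8 CPM in the 4. This gap follows in part from the split, since Nts and Cck are part of the sum. In RFD mouse 30, the lowest of the 7, they gave 29.3 and 199.5 of the 236.3 CPM.

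Among pairs, Cck was above 10 CPM in 11 of the 12 libraries with Nts (91.7%), which is 78.6% of the 14 libraries with Cck. The 5 libraries with Pyy all had Nts and Cck as well, the 3 with Sst all had Ghrl, and the 3 with Tac1 all had Tph1. Of the 15 libraries with Gip, 8 had Cck, 6 had Gcg, 5 had Nts, 4 had Pyy, 4 had Tph1, 1 had Ghrl and none had Sst or Tac1. Of the 36 pairs without Sct, 31 shared at least 1 library. Their Spearman rho over the 45 libraries ranged from -0.02 to 0.73 with a median of 0.34, highest for Nts and Pyy. These values describe the libraries, which share zeros in many genes, and have no test.

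Chgb and Chga, which encode the granins that pack hormones in enteroendocrine granules, were read beside the hormone genes. The Spearman rho of Chgb with the summed level of the 9 was 0.74 over 45 libraries, 0.42 within the 9-week set and 0.68 within the 22-week set. Within the groups it was 0.20 and 0.52 for RFD and HFD at 9 weeks and 0.53 and 0.45 at 22 weeks. With Sct it was -0.09, and no test was made of these values, which share the libraries and their depth. On RFD at 22 weeks, Chgb was between 31.3 and 450.2 CPM in the 7 libraries with Nts and Cck and between 0.788 and 5.69 CPM in the other 4. The 22-week median of Chgb was 45.2 CPM for RFD and 4.25 CPM for HFD. Its log2 fold change of -2.96 had an SE of 1.03 (edgeR adjusted p = 0.284), and Chga had -1.58 with an SE of 0.76 (adjusted p = 0.482). Chgb was called by DESeq2 and with the tuft marker covariate.

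Of 12 listed genes for granins and prohormone processing, 8 could be tested, and 2 were lower on HFD at 22 weeks and none at 9 weeks. The median log2 fold change of the list was -2.73 at 22 weeks and 0.38 at 9 weeks. The called genes were Scg2, a granin with 356 reads on RFD and 23 on HFD (log2 fold change -3.97, SE 0.76, edgeR adjusted p = 0.00934), and Resp18, a granule protein gene with 41 and 2 reads (-3.64, SE 0.97, adjusted p = 0.0978). Resp18 was not called by DESeq2, with its size factors or with the tuft marker covariate. For Scg2, 7 of 11 RFD mice lay above every HFD mouse. Pcsk1, a convertase that cuts hormone precursors, had -1.06 (SE 0.56, adjusted p = 0.527). The summed level of the 8 genes was between 4.49 and 662.3 CPM on RFD at 22 weeks (median 111.3 CPM) and between 7.32 and 175.2 CPM on HFD (median 23.9 CPM). Its part in the hormone result was not tested.

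Of 14 endocrine transcription factors, 6 could be tested and none was called at either time, with median log2 fold changes of 0.22 and -0.73 at 9 and 22 weeks. Neurod1, a factor of maturing enteroendocrine cells, had -1.97 (SE 0.82, edgeR adjusted p = 0.405) at 22 weeks. Among 14 genes of other peptides and amines 3 were tested, and Ddc, the decarboxylase that follows Tph1 in serotonin synthesis and is also found in other cells, was higher on HFD at both times. Ddc differed by 0.93 on the log2 scale at 9 weeks (SE 0.23, edgeR adjusted p = 0.0543) and by 0.95 at 22 weeks (SE 0.20, adjusted p = 0.026), where 10 of 12 HFD mice were above every RFD mouse. The 9-week call was lost with the tuft marker covariate. Of 11 nutrient sensors of enteroendocrine cells 7 were tested. Slc5a1, the sodium-glucose transporter that enterocytes also carry, was lower at 22 weeks (-1.36, SE 0.29, adjusted p = 0.0233), with 12 of 12 HFD mice below the RFD median, and had -1.19 (adjusted p = 0.107) at 9 weeks. Of 21 receptor genes for these hormones only 4 were tested and none was called.

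**Figure D4:**
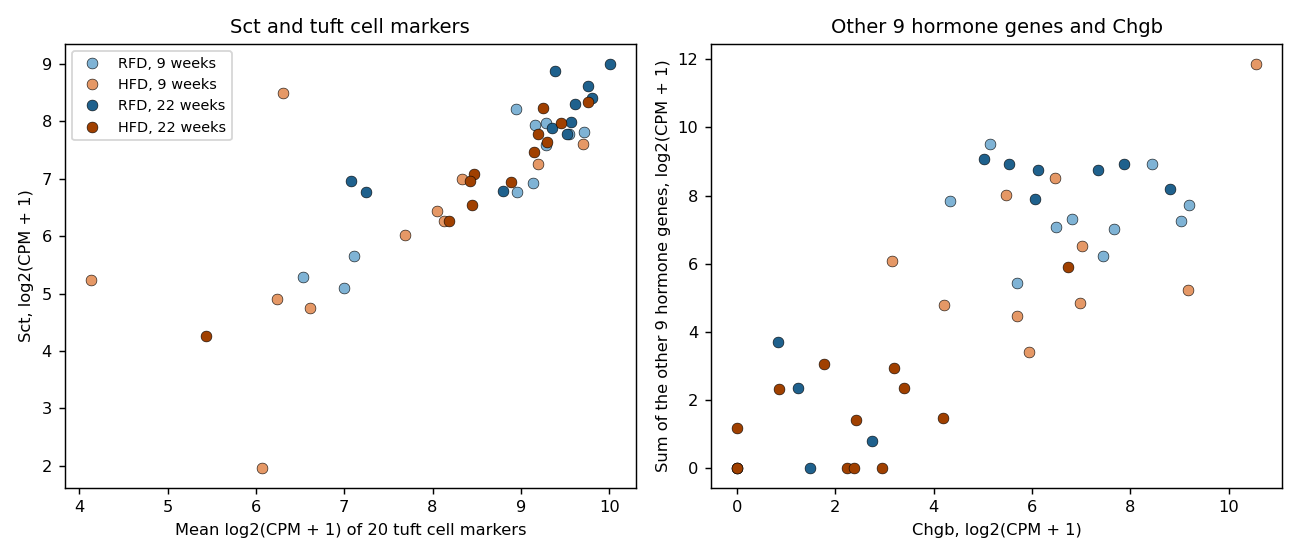
Left, Sct against the mean log2(CPM + 1) of 20 tuft cell markers, and right, the sum of the other 9 hormone genes against Chgb, both as log2(CPM + 1), with 1 point per library coloured by diet and weeks of feeding. Sct rises with the tuft markers in all 4 groups apart from HFD mouse 8 at 9 weeks (upper left), and the sum of the other 9 genes has a rho of 0.74 with Chgb.

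The level of Sct went up and down with the tuft cell markers. Its rho with their mean was 0.82 over 45 libraries and 0.64, 0.65, 0.81 and 0.93 within the groups RFD and HFD at 9 weeks and RFD and HFD at 22 weeks. For the other 9 genes the rho with the tuft marker mean over all libraries lay between -0.31 for Gip and 0.28 for Nts. HFD mouse 50 at 9 weeks had the lowest Sct level, 2.91 CPM from 1 read in a library of low total, and the third lowest marker mean. RFD mouse 40 at 22 weeks had the highest of both. The exception was HFD mouse 8 at 9 weeks, with 357.5 CPM of Sct at a marker mean of only 6.31, and with the highest Chgb of all libraries, 1516 CPM. With the tuft marker mean as a covariate the Sct difference was 0.10 at 9 weeks and -0.50 (edgeR adjusted p = 0.219) at 22 weeks. No tuft cell marker of the 20 was called at either time, with list medians of -0.94 at 9 weeks and -0.42 at 22 weeks.

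Genes whose levels were most like those of the hormone genes were ranked by the smaller of their Spearman rhos in the 2 sets (22 and 23 libraries), with the 10 hormone genes themselves left out of the ranking. For Sct these were Lypla2 (0.82 and 0.88), Gstt1 (0.82 and 0.85) and Camta2 (0.81 and 0.82). For Cck they were Cpe (0.59 and 0.75), Rbp4 (0.57 and 0.75) and Resp18 (0.57 and 0.66), of which Cpe and Resp18 belong to the granule list. For Nts they were Ido1, Spats2l and Adra2a with smaller rhos of 0.59, 0.58 and 0.54, for Tph1 Gpx3, Lcp1 and Ambp with 0.69, 0.65 and 0.60, and for Gip 1110046J04Rik, Tnfaip8 and Naa16 with 0.46, 0.45 and 0.45. The summed level of all 10 was most like Ltf (0.60 and 0.73), followed by Phlda1, Hmgn3, Fam216a and Prnp. Each name is the top of a ranking over all other tested genes, a choice that itself raises the rhos, and no test was made.

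Markers of other cells were also read beside the hormone genes, and every marker tested had reads in each group. The summed level of the 10 enterocyte markers at 22 weeks ranged from 6956 to 34660 CPM among RFD libraries (median 20790 CPM) and from 13200 to 46360 CPM among HFD libraries (median 21220 CPM). The rho of their mean with the sum of the 9 hormone genes was -0.79 over the 11 RFD libraries and 0.32 over the 12 HFD libraries. Rbp2 of this list was higher on HFD at both times. Paneth cell markers, all 7 of them tested, ranged from 79.96 to 42400 CPM on RFD and from 30.3 to 139200 CPM on HFD at 22 weeks. Medians were 1541 and 2685 CPM for the 7 goblet cell markers, 161.5 and 276.2 CPM for the 6 stem cell markers, and 17.2 and 37.4 CPM for 3 of 5 M cell markers. For 6 of 8 intraepithelial T cell markers they were 10.8 and 2.61 CPM, and for the 6 myeloid markers 9.53 and 9.50 CPM. Apart from Rbp2, no gene of these 7 lists was called at 22 weeks, and Olfm4 and Smoc2 of the stem cell list were higher on HFD at 9 weeks. The part of these cells in the hormone result was not tested.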

How the data were processed

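Bulk RNA-seq libraries of sorted tuft cells were analysed, 1 per mouse, prepared with Smart-seq2 and Nextera XT and read paired-end. According to the submitters' processing notes, the authors trimmed reads with cutadapt 1.15, aligned them with STAR 2.6.0 to GRCm38 and obtained estimated counts per gene with RSEM, which divides reads among genes they match. Of the deposited counts above 0, 8.79% were not whole, and all were rounded here. The deposited TPM values were made by the authors with RSEM from the same reads, scaled to transcript length and library. The authors' later weighing of counts by cell type and removal of genes of other cells was not repeated. No use was made of 24 columns that match no sample, 12 in each set.

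Genes with more than 5 reads in at least 6 libraries were kept. Counts were normalized by TMM and the diets were compared within each set with edgeR 4.0.16 (quasi-likelihood F test, robust estimation, in R 4.3.3), both sets together with the set as a term, and the interaction of diet and set in all 45 libraries. P-values were adjusted after Benjamini and Hochberg over the 14020 genes, and they measure the spread between mice. The mice shared cages, each cage belonged to a single group, and cages were taken down on different days. The labels do not give cage or day, so neither was in the fits and mice of a cage were treated as independent. Libraries above 10 CPM were compared with Fisher's exact test. Alternatives were DESeq2 1.42.0, limma 3.58.1 on log2(TPM + 1) and log2(TPM + 0.1), a SAM-seq style rank test, other size factors, no filter, other limits, the number series, a covariate of 20 tuft markers and leaving out each library. The edgeR fits without robust estimation and with adjusted deviances were chosen after seeing the data. The edgeR fit was tested on simulated counts with changes only in genes above the median level. This says little about genes as sparse as most of the hormone genes. Sequences are from RefSeq GRCm38.p6, which held an upstream window for all 10 genes.

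The members and lists were chosen with earlier results of these data known. Named were all 10 members, the called genes of the endocrine lists with Chga, Chgb, Neurod1 and Pcsk1, and the genes ranked highest by the smaller rho of the 2 sets (5 for the sum, 3 for each member above 10 CPM in at least 10 libraries). Mouse numbers recur only between the sets, in 16 pairs of libraries, so no pairing of diets within a set exists. RFD mouse 84 at 9 weeks and HFD mouse 65 at 22 weeks belong to no number series and were left out of that fit.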

Additional observations from a re-analysis of the deposited data

How the results depend on the processing

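The 5 calls at 22 weeks became 2 with DESeq2 (Nts and Cck), 2 with limma on log2(TPM + 1), 1 with limma on log2(TPM + 0.1) and 2 with the SAM-seq style rank test, and were 5 or 6 under the other settings. The shares of all genes called differed widely too, with 0.792% in the main fit. They were 2.5% with DESeq2, 0.364% and 0.221% with limma and 7.81% with the rank test. In edgeR they were 0.742% with the size factors of DESeq2, 1.26% without the filter, 0.728% without robust estimation and 1.61% with adjusted deviances. Without the filter Pyy was lost (edgeR adjusted p = 0.127) and Sst was gained (0.0896). With adjusted deviances Tph1 was gained (edgeR adjusted p = 0.0544). Without each library in turn the calls among the 10 hormone genes were 5 to 6 at 22 weeks and 0 to 0 at 9 weeks. The interaction, with no gene called, gave 3 without the filter, 1 without robust estimation and 2 with adjusted deviances, the last 2 settings chosen after seeing the data. Of all genes these settings called 0.181%, 0.00713% and 0.0285%. The endocrine lists without the 10 hormone genes had 1 call at 9 weeks. DESeq2, its size factors in edgeR, no filter and the number series each gave 2, adjusted deviances 3 and the tuft marker covariate 0. In this order, 10.9%, 3.42%, 5.22%, 3.25%, 11.5% and 0.128% of all genes were called at 9 weeks, against 3.32% in the main fit. The causes were not tested.

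At 9 weeks, where no hormone gene was called, the direction of Gip turned to -1.14 with DESeq2, -0.921 with the number series, -1.26 with the tuft marker covariate, -2.07 and -2.72 with limma at pseudocounts of 1 and 0.1, and -16.1 in the SAM-seq style statistic. Tph1 turned to -1.61, -0.124, -1.01, -0.487, -0.622 and -6.95 under the same settings. With the tuft marker covariate Sct turned to 0.102 and Pyy to -0.628. Ghrl turned to -0.151 with limma at 0.1 and to -1.05 in the SAM-seq style statistic. Without each library in turn, the 9-week values ranged from -1.37 to 0.245 for Nts, -2.59 to -0.283 for Cck, -3.97 to -0.516 for Gcg, -1.11 to 1.89 for Gip, 1.43 to 3.56 for Pyy, -0.502 to 1.65 for Ghrl, -1.75 to 2.67 for Sst, -0.11 to 1.18 for Tac1 and -1.57 to 0.984 for Tph1. No 22-week library was under 500000 reads, so leaving out libraries of low total gave no value there.

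With a replicate block for the 16 pairs of libraries that share a diet and a mouse number across the sets, no hormone gene was called for the interaction, and the Sct interaction turned from -0.03 to 0.632. Deviations of same-numbered libraries correlated at -0.386 to 0.379 (median -0.16), with 2 of 16 over 0.1. Whether such libraries share more than a number cannot be told from these values. Depth limits what absence means, since 3 reads over the 22-week HFD group are 0.131 CPM.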

Other observations

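Between the RFD groups, the make-up of the hormone genes differed from set to set, which was not tested because feeding time and set cannot be told apart. The CPM were also normalized in each set on its own. Gip was above 10 CPM in 7 of 11 RFD libraries at 9 weeks and in 3 of 11 at 22 weeks, while Nts was above it in 3 and 7 and Cck in 4 and 7. Pyy was above the limit in no RFD library at 9 weeks and in 3 at 22 weeks.

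The library of HFD mouse 8 at 9 weeks held the most hormone genes of all 45, with 8 of the 10 above 10 CPM and 3721 CPM summed over the 9 without Sct. It also had the highest Chga and Chgb, 515.1 and 1516 CPM, and the fifth lowest tuft marker mean. HFD mouse 6 at 22 weeks, the only one of its group with a hormone gene other than Sct above the limit, had the highest Chga and Chgb of its group, 58.8 and 105.1 CPM, and the second lowest tuft marker mean of all libraries.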
